A study of Homo sapiens with 2 samples.

Results

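RUNX2 and MTA1 peaks were examined at the 10 genes of the AP-1 transcription factors: FOS, FOSB, FOSL1 and FOSL2 of the FOS family, JUN, JUNB and JUND of the JUN family, and ATF3, BATF and BATF3. A peak was counted for a gene when it lay inside the gene or within 50 kb of either end, with the genes taken from RefSeq GRCh38.p14. The members are 10 of 20037 protein-coding genes, and their windows held 113 of 61700 RUNX2 peaks and 91 of 42683 MTA1 peaks. The windows of ATF3 and BATF3 overlap, and 4 peaks of each list belonged to both. The cells were MDA-MB-231, a widely used triple-negative breast cancer line, grown in DMEM with 10% FBS and given no treatment that the labels name. The data were 1 CUT&Tag library per antibody, anti-RUNX2 and anti-MTA1, in which an antibody tethers a transposase to chromatin so that DNA beside the bound protein is cut out and sequenced. With 1 library each and no control library used here, no test between them could be run, and the values describe these libraries.

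AP-1 proteins share a basic leucine zipper, by which they bind DNA as dimers. JUN proteins pair with each other or with FOS proteins, FOS proteins need a JUN partner, and the BATF proteins pair with JUN but lack its activation domain. The FOS and JUN genes are known as immediate early genes that respond within minutes to growth factors and stress, and AP-1 is known for its part in the growth and invasion of breast cancer cells. RUNX2 is a transcription factor best known for bone formation, and MTA1 belongs to NuRD, a complex that remodels nucleosomes and removes acetyl groups from histones. RUNX and AP-1 proteins are known to meet at enhancers. The study asked which genes carry RUNX2 and MTA1, and the AP-1 genes were compared here with all protein-coding genes in that respect.

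The promoter windows of 5 members are shown because they span the range found, from wholly inside a RUNX2 peak to bare. Each runs from 250 bases before the RefSeq start to 30 bases after it, 5′ to 3′ on the strand of the gene, and capitals mark the bases that lie inside a RUNX2 peak. On GRCh38.p14 they are chr1:58784018-58784297 on the minus strand for JUN, chr19:18281593-18281872 on the minus strand for JUND, chr2:28392608-28392887 on the plus strand for FOSL2, chr14:75278578-75278857 on the plus strand for FOS and chr14:75522219-75522498 on the plus strand for BATF.
JUN: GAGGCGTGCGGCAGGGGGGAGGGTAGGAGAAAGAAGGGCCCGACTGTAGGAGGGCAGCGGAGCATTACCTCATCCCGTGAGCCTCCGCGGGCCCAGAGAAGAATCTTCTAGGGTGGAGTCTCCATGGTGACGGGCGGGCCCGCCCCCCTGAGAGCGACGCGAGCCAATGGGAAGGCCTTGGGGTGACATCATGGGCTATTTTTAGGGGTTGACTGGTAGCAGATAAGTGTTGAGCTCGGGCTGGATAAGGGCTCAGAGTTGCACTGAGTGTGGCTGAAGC
JUND: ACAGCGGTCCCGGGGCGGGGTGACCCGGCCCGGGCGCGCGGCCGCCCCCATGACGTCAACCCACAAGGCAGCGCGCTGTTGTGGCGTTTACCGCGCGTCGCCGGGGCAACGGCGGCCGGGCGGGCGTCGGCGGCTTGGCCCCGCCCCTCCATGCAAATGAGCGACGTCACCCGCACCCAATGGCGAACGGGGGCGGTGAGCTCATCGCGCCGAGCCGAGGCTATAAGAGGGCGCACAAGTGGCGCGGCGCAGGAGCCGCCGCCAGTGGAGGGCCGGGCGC
FOSL2: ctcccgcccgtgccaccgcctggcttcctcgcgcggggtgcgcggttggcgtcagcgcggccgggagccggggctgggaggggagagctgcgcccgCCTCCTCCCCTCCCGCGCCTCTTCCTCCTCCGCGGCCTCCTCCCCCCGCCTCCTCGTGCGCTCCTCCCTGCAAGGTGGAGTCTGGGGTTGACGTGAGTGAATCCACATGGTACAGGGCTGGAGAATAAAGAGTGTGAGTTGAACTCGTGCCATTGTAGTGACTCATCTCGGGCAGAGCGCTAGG
FOS: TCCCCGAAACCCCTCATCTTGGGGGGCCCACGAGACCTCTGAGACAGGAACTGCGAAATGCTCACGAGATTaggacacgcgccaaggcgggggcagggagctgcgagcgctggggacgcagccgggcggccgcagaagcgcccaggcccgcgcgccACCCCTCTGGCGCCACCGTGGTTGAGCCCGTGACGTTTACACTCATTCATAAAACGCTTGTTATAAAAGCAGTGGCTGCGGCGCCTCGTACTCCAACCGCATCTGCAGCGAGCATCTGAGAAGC
BATF: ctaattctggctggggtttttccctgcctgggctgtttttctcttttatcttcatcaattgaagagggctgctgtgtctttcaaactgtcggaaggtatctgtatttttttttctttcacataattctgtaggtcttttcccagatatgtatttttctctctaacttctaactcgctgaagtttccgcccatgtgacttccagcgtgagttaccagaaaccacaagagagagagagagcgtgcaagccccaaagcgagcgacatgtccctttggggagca
JUN and JUND were covered from end to end, by the RUNX2 and the MTA1 peak alike. The RUNX2 peak of FOSL2 began within the window and ran past the start. FOS carried 2 separate RUNX2 stretches with a gap between them, and BATF carried none.

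The AP-1 windows held more peaks for their length than most coding genes. The median density of the 10 members was 9.42 RUNX2 peaks per 100 kb (range 4.82 to 16.6) against 3.55 over all coding genes, and 7.14 MTA1 peaks per 100 kb (range 3.87 to 15.9) against 2.58. All 10 members lay above the median of all genes in both lists. FOSL1 held the most RUNX2 peaks, 18, or 16.6 per 100 kb, a density above that of 99.9% of coding genes. FOSB was highest for MTA1, with 17 peaks and 15.9 per 100 kb. BATF was lowest for RUNX2, with 6 peaks and 4.82 per 100 kb, and JUN was lowest for MTA1, with 4 peaks and 3.87 per 100 kb.

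**Figure D1:**
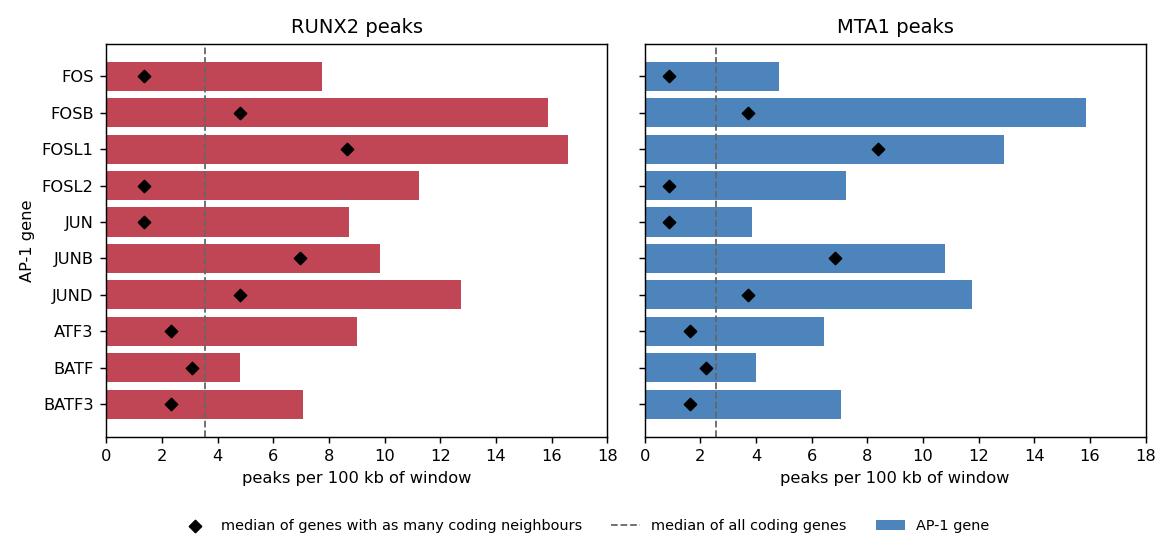
Bars give RUNX2 (left) and MTA1 (right) peaks per 100 kb of window for each AP-1 gene, diamonds the median of genes with as many other coding genes in their window, and the dashed lines the median of all coding genes, 3.55 and 2.58. Every bar ends to the right of its diamond and of the dashed line.

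Gene-dense regions hold more peaks, so each member was also set beside the genes with the same number of other coding genes in their window. FOS, FOSL2 and JUN have 0 such neighbours, and their densities were 7.74, 11.2 and 8.72 RUNX2 peaks per 100 kb against a median of 1.37 for the 2257 genes without a neighbour. For MTA1 the same 3 genes had 4.84, 7.23 and 3.87 peaks per 100 kb against 0.876. Per 100 kb, these 3 genes thus stood several times above the median of other isolated genes. Windows differ in length, and the gap in plain counts was smaller. FOS, FOSL2 and JUN held 8, 14 and 9 RUNX2 peaks against a median of 3, and 5, 9 and 4 MTA1 peaks against 2. All 10 members held more peaks of each list than such a median, with the least excess of RUNX2 peaks at JUNB and BATF. JUNB held 10 RUNX2 peaks against 9 and 11 MTA1 peaks against 8, and BATF held 6 against 5 and 5 against 3. As a ratio, the gap in density was narrower at FOSL1 and JUNB, the most crowded windows, than at FOS, FOSL2 and JUN. FOSL1, with 10 neighbours, had 16.6 and 12.9 peaks per 100 kb against 8.64 and 8.38, and JUNB, with 8 neighbours, had 9.82 and 10.8 against 6.97 and 6.82. The gap did not follow the number of neighbours throughout. For RUNX2, BATF, with 2 neighbours, had 4.82 against 3.09, and FOSB, with 4, had 15.9 against 4.79. With windows of 10 kb in place of 50 kb, BATF and BATF3 were no longer above the RUNX2 median of all genes, while the other 8 were.

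Near the ends of the genes the counts stood closer to the background. A RUNX2 peak lay within 3 kb of an end of 8 of the 10 members, all but ATF3 and BATF, against 59.9% of coding genes. An MTA1 peak did so at 9 members, all but BATF, against 59.1%. Peaks of both lists lay near an end of 8 members against 51.9% of coding genes, and in the whole windows both lists were present at all 10 members against 84.9%. With 10 genes, counts of 8 or 9 are not far from these shares. Peaks of high score showed a wider gap. A peak in the highest 10% of the scores of its list lay within 3 kb of an end of FOSL1, FOSL2, JUN and JUND, and the same 4 genes were found in both lists, against 11.3% of coding genes for RUNX2 and 15.6% for MTA1. Anywhere in the window, such a peak was found at 8 members in each list, all but JUNB and BATF, against 38.8% for RUNX2 and 38.9% for MTA1. The member windows also held more peaks, a median of 11.5 for RUNX2 and 9.5 for MTA1 against 5 and 4 over all coding genes. Peak by peak, 12.4% of the RUNX2 peaks in member windows were in the highest 10%, against 10.3% in all coding-gene windows. For MTA1 the shares were 19.8% against 10.8%.

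**Figure D2:**
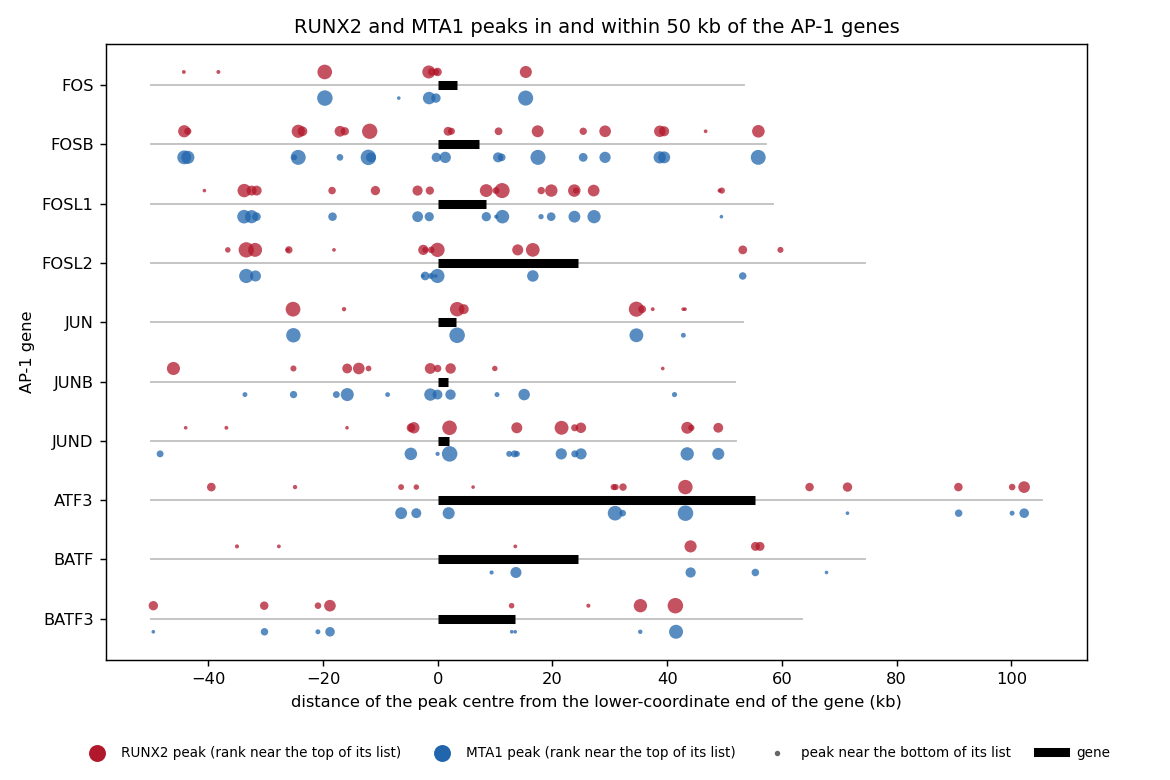
Each row is an AP-1 gene (black bar) with its 50 kb on either side (grey line). Points above the line are RUNX2 peaks and points below it are MTA1 peaks, placed in kb from the lower-coordinate end of the gene and sized by score rank within their list. Many of the larger points lie away from the gene itself, and most RUNX2 points have an MTA1 point beneath them.

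The scores of the peaks have no stated scale, so each peak is described by its score and its percentile, the share of peaks of its own list with a lower score. The lists differ in length, 61700 RUNX2 against 42683 MTA1 peaks, so a higher percentile does not measure which protein binds more. The strongest peak of a member window had a median percentile of 96.9 for RUNX2 (range 83.9 to 99.7) against 87.2 over the coding genes with a RUNX2 peak in their window, and of 96.7 for MTA1 (range 78.2 to 99.95) against 87.9 over those with an MTA1 peak. These medians were not adjusted for the larger number of peaks in the member windows. The strongest RUNX2 peak lay within 3 kb of an end of the gene at 2 of 10 members, FOSL1 and JUND, and further inside the gene at 1, ATF3. The strongest MTA1 peak lay near an end at 2, JUN and JUND, and further inside the gene at 2, ATF3 and BATF. At 6 members, FOS, FOSB, FOSL2, JUND, ATF3 and BATF3, the strongest peaks of both lists overlapped each other. The shares of all coding genes with such places or overlaps were not computed, so these counts were not compared with other genes.

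**Figure D3:**
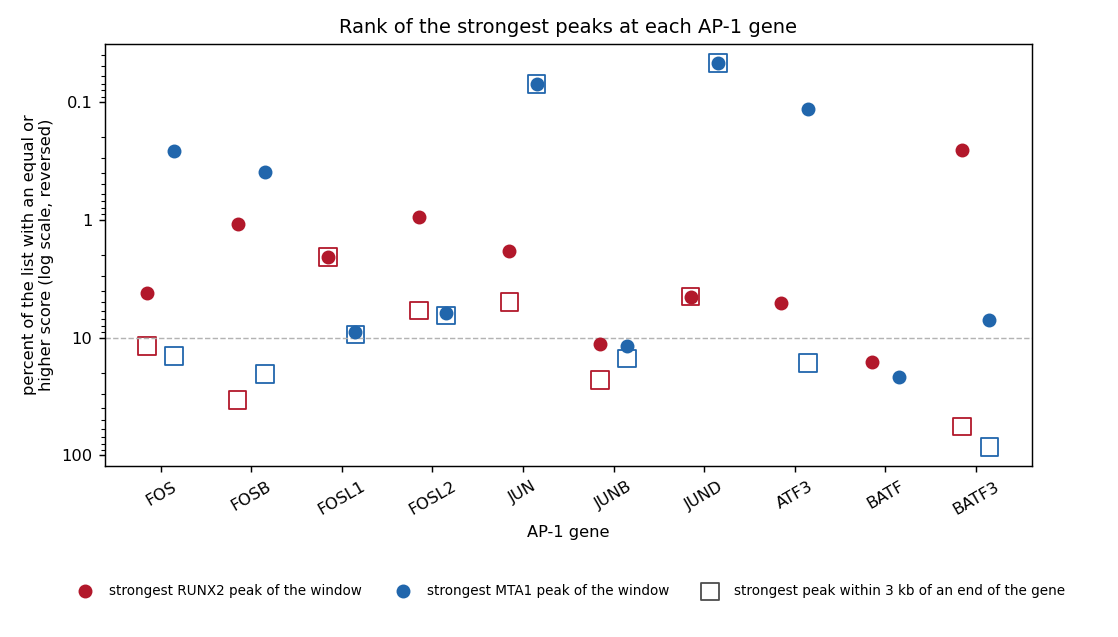
Filled points give, for each AP-1 gene, the percent of the list with a score at or above that of its strongest RUNX2 or MTA1 peak (log scale, reversed, so the top of a list is at the top), and open squares the strongest peak within 3 kb of an end of the gene. The MTA1 points of JUND, JUN and ATF3 stand highest, and BATF has no open square.

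FOS encodes the founding member of the FOS family. Its window held 8 RUNX2 and 5 MTA1 peaks, and FOS was the nearest coding gene of each. The strongest pair lay 19.7 kb before the start. There the RUNX2 peak at chr14:75258865-75259403 scored 35.0 (rank 2586, percentile 95.8) and the MTA1 peak at chr14:75258879-75259441 scored 59.1 (rank 111, percentile 99.7). A second distal pair lay 15.4 kb past the start, with percentiles of 83.4 for RUNX2 and 97.8 for MTA1. At both distal sites MTA1 ranked above RUNX2.

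Near the start, FOS carried 4 RUNX2 and 2 MTA1 peaks. The pair centred about 1.5 kb upstream, chr14:75277006-75277547 for RUNX2 and chr14:75277038-75277638 for MTA1, had scores of 21.2 and 18.5 and percentiles of 88.2 and 85.7. A weaker pair about 0.3 kb upstream had percentiles of 50.01 for RUNX2 and 69.0 for MTA1. A RUNX2 peak of score 7.69 about 1 kb upstream and one of score 8.68 over the start itself, at chr14:75278734-75278866, met no MTA1 peak. The last of these is the second stretch of capitals in the FOS sequence, which RUNX2 alone marked.

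FOSB, a close relative of FOS, lies in a crowded region and held 17 peaks of each list. RUNX2 and MTA1 did not meet near its ends. An MTA1 peak ended 84 bp before the start, at chr19:45467608-45467912, with a score of 11.0 (percentile 68.9), and another lay 1.3 kb inside the gene with 14.9 (percentile 79.6), whereas RUNX2 peaks lay 1.8 and 2.4 kb inside with scores of 9.33 and 6.99 (percentiles 66.1 and 54.2). The strongest peaks lay about 12 kb before the start, nearest to ERCC1, a DNA repair gene. They were a RUNX2 peak at chr19:45455762-45456524 with a score of 53.8 (rank 676) and an MTA1 peak at chr19:45455753-45456072 with a score of 55.3 (rank 169). Only 3 of the 17 RUNX2 peaks and 4 of the 17 MTA1 peaks had FOSB as their nearest coding gene.

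FOSL1 encodes FRA-1, the FOS family protein known to be abundant in MDA-MB-231 cells. Its window held 18 RUNX2 and 14 MTA1 peaks and 10 other coding genes, and all 14 MTA1 peaks overlapped a RUNX2 peak. The strand of FOSL1 is not in the tables used here, so its ends are called lower and upper by coordinate. At the upper end RUNX2 at chr11:65900367-65900655 scored 20.3 (percentile 87.5) and MTA1 scored 10.9 (percentile 68.4). The strongest RUNX2 peak of the window, chr11:65902987-65903557, lay 2.44 kb beyond this end and scored 44.9 (rank 1281, percentile 97.9), with MTA1 at chr11:65903149-65903523 scoring 22.7 (percentile 90.6). Between them a weak pair lay 1.6 kb beyond the end (percentiles 53.6 and 23.9), and at the lower end a pair over CCDC85B had percentiles of 62.3 and 68.1. At all 3 sites of the upper end RUNX2 ranked above MTA1. The strongest MTA1 peak of the window, with a score of 23.2 (percentile 91.0), lay near CFL1, the gene of the actin regulator cofilin.

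FOSL2 encodes FRA-2 and has no coding neighbour in its window, which held 14 RUNX2 and 9 MTA1 peaks. Over its start RUNX2 at chr2:28392704-28392946 scored 30.2 (percentile 94.1) and MTA1 at chr2:28392681-28392942 scored 26.5 (percentile 93.5), so the start ranked alike in both lists. Within 3 kb upstream there were 3 weaker RUNX2 peaks with percentiles of 45.2, 51.1 and 73.8, and 4 MTA1 peaks with percentiles from near 0 to 65.0. The strongest peak of the window lay 33.4 kb before the start, at chr2:28359238-28359736, where RUNX2 scored 55.7 (rank 590) and MTA1 27.1 (percentile 93.8), with BABAM2 as the nearest coding gene. A pair inside the gene, 16.6 kb past the start, had percentiles of 91.5 for RUNX2 and 80.7 for MTA1. RUNX2 ranked above MTA1 in 7 of the 8 pairs of FOSL2.

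JUN encodes the c-Jun protein and stood out for MTA1. The peak over its start, chr1:58783911-58784442, scored 69.6 and was rank 30 of 42683. The RUNX2 peak at the same place, chr1:58783973-58784393, scored 32.7 (rank 3100, percentile 94.98). A RUNX2 peak of score 11.1 (percentile 72.4) centred 1.28 kb upstream met no MTA1 peak. The window had 0 coding neighbours, and JUN was the nearest coding gene of all its 9 RUNX2 and 4 MTA1 peaks.

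The strongest RUNX2 peak of JUN was not at the start. It lay 31.4 kb upstream, at chr1:58815235-58815613, inside the noncoding divergent transcript JUN-DT, and scored 46.8 (rank 1140, percentile 98.2), with an MTA1 peak of score 24.6 (percentile 92.2) over it. A further pair 28.5 kb past the start had a RUNX2 score of 37.6 (percentile 96.5) and an MTA1 score of 29.0 (percentile 94.8). JUN thus had 3 sites in the highest 10% of both lists, the start and a distal site on either side. MTA1 ranked higher at the start and RUNX2 at both distal sites.

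JUNB, whose product is a weaker activator than c-Jun, had 10 RUNX2 and 11 MTA1 peaks, none in the highest 10% of its list. Over the start RUNX2 at chr19:12791368-12791574 scored 7.53 (percentile 56.9) and MTA1 at chr19:12791361-12791537 scored 11.9 (percentile 71.7), in a stretch that also lies in HOOK2. A pair 1.3 kb upstream scored 13.0 and 17.9 (percentiles 77.2 and 84.9), and a pair 2.25 kb past the start scored 12.2 and 12.8 (percentiles 74.96 and 74.6). The strongest RUNX2 peak, of score 21.5 (percentile 88.5), lay 46.1 kb away, nearest to GET3, and the strongest MTA1 peak, of score 20.5 (percentile 88.2), lay 15.8 kb away, nearest to HOOK2. JUNB had both proteins at its start, at modest rank.

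JUND, the JUN gene that is expressed in many resting cells, carried the strongest MTA1 peak of the family. That peak, chr19:18281452-18282098, covered the start, scored 72.6 and was rank 20 of 42683. The RUNX2 peak over the same bases, chr19:18281466-18282053, scored 34.1 (rank 2770, percentile 95.5) and was also the strongest RUNX2 peak of the window. A weak MTA1 peak 1.95 kb past the start (percentile 27.1) met no RUNX2 peak. In all, 13 RUNX2 and 12 MTA1 peaks lay in the window.

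JUN and JUND therefore shared the same arrangement at the start, a RUNX2 peak near percentile 95 inside an MTA1 peak among the 30 highest of its list. Their promoter windows differed in base composition, with 62% G and C in JUN and 77% in JUND.

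ATF3, a stress-induced gene whose protein pairs with JUN proteins, is the longest member at 55.4 kb. No RUNX2 peak lay within 3 kb of its ends, and the 1 MTA1 peak there, chr1:212567202-212567437, lay 1.9 kb past the start and scored 17.1 (percentile 83.5). The strong peaks were inside the gene. At 43.2 kb past the start RUNX2 at chr1:212608355-212608812 scored 32.6 (rank 3114, percentile 94.9) and MTA1 at chr1:212608344-212608859 scored 66.5 (rank 49). At 30.9 kb an MTA1 peak of score 31.9 (percentile 96.0) covered 2 RUNX2 peaks that both scored 6.43 (percentile 48.1). Before the start, pairs at 6.38 and 3.73 kb had MTA1 percentiles of 82.4 and 72.3 and RUNX2 percentiles of 45.2 and 42.0. From 6.38 kb before the start to 43.2 kb inside the gene, MTA1 thus ranked above RUNX2 at most shared sites. The exception was a pair 32.3 kb past the start, with percentiles of 56.8 for RUNX2 and 51.7 for MTA1. Past the gene RUNX2 ranked higher in every pair, so the pairs of the whole window divided 5 to 5.

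BATF, known best from lymphocytes, was the only member with no peak of either list within 3 kb of its ends. Its window held 6 RUNX2 and 5 MTA1 peaks, none in the highest 10% of its list. Inside the gene, 13.5 kb past the start, a weak RUNX2 peak at chr14:75535885-75536109 scored 4.62 (percentile 19.0) and overlapped the strongest MTA1 peak of the window, chr14:75535966-75536252, which scored 14.3 (percentile 78.2). The strongest RUNX2 peak, chr14:75566413-75566681, scored 17.1 (percentile 83.9) and lay 44.1 kb past the start, nearest to FLVCR2.

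BATF3, known for its need in the making of cross-presenting dendritic cells, had weak peaks at its ends. At its upper end RUNX2 at chr1:212699161-212699440 scored 5.79 (percentile 42.8) and MTA1 peaks at chr1:212699273-212699388 and chr1:212699869-212699984 scored 4.84 and 4.70 (percentiles 14.9 and 13.5). The highest-ranked pair with BATF3 as its nearest coding gene lay 18.6 kb from the gene, with percentiles of 81.3 for RUNX2 and 70.1 for MTA1. The strongest RUNX2 peak of all 10 members lay in its window, 27.7 kb beyond the upper end and inside NSL1, a kinetochore gene. It spans chr1:212727544-212728153 and scored 70.6 (rank 159 of 61700), with MTA1 at chr1:212727859-212728076 scoring 25.6 (percentile 92.9). NSL1 was the nearest coding gene of both, and which gene the site acts on was not tested. RUNX2 ranked above MTA1 in all 7 pairs of the BATF3 window, which include the 4 RUNX2 peaks counted for ATF3 as well.

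Peaks of the lists coincided often at the AP-1 genes. Of the 113 RUNX2 peaks, 71 (62.8%, exact binomial 95% interval 53.2 to 71.7) shared at least 1 bp with an MTA1 peak, against 45.4% of the whole list and 47.6% of the peaks in all coding-gene windows. Peaks of high score overlap more often, and RUNX2 peaks of the whole list in the same score deciles overlapped in 56.8%, a share inside that interval. Of the 91 MTA1 peaks, 71 (78.0%, 68.1 to 86.0) met a RUNX2 peak, against 65.5% of the whole list and 78.7% at the same score deciles. The overlap at the members was thus about that of peaks of equal score elsewhere. The intervals cover counting error only.

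The overlap was split by place. Within 3 kb of an end of any coding gene, 71.4% of 49 RUNX2 peaks (56.7 to 83.4) of the AP-1 windows met an MTA1 peak, against 67.3% in all coding-gene windows. Elsewhere the share was 56.3% of 64 (43.3 to 68.6) against 39.7%. For MTA1 it was 77.8% of 45 near ends against 72.8%, and 78.3% of 46 elsewhere (63.6 to 89.1) against 63.1%. Away from gene ends the members' shares thus lay above those of all windows. Peaks of the whole lists in the same score deciles as these overlapped in 50.1% for RUNX2 and 77.3% for MTA1, inside both intervals. These matched shares include peaks near gene ends, so score and place were not separated.

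Overlapping peaks had the higher median percentile, with a wide spread among peaks with and without a partner. In the AP-1 windows 14 RUNX2 peaks (12.4%, against 10.3% in all coding-gene windows) were in the highest 10% of their list. For MTA1 there were 18 (19.8%, against 10.8%). All of these overlapped a peak of the other list. The overlapping share among the highest 10% of the whole lists is not given here, so this was not compared with other genes. The 71 overlapping RUNX2 peaks had a median percentile of 74.96, with 10 of them under the median score of the list, as were 11 of the 71 overlapping MTA1 peaks. The 42 RUNX2 peaks without an MTA1 partner had a median percentile of 43.2, 17 of them reached the median score, up to percentile 88.5, and 17 had the narrowest width in the list, 99 bp. The 20 MTA1 peaks without a RUNX2 partner had a median percentile of 42.2, 8 reached the median score, up to percentile 83.5, and 9 had the narrowest width, 116 bp. Where peaks met, they met closely. The 72 overlapping pairs shared a median of 230.5 bp, and the centres lay a median of 22.5 bp apart and within 100 bp in 66 pairs.

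**Figure D4:**
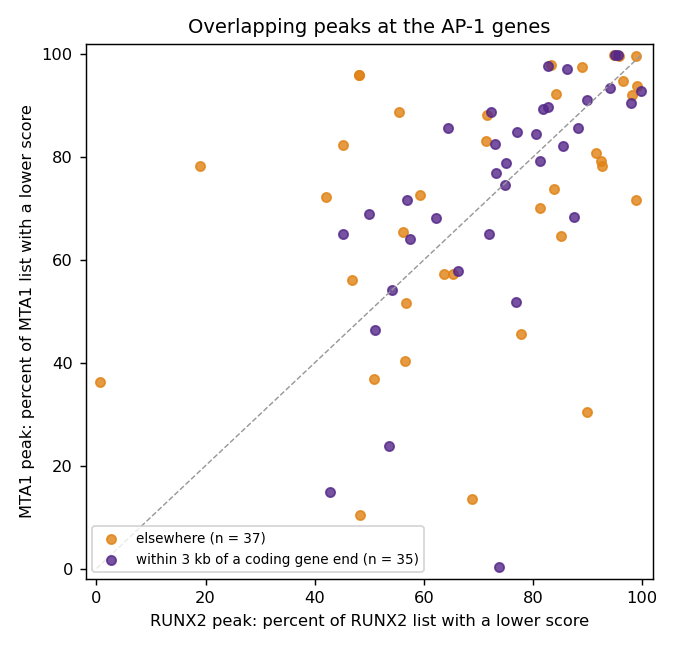
Each point is 1 of the 72 overlapping pairs at the AP-1 genes, with the percentile of its RUNX2 peak on the x axis and of its MTA1 peak on the y axis. Pairs within 3 kb of an end of any coding gene (n = 35) and elsewhere (n = 37) lie on both sides of the dashed line of equal percentile.

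The pairs of the family as a whole were split near evenly. MTA1 had the higher percentile in 37 of 72 pairs (51.4%) and RUNX2 in 35. In the whole lists MTA1 was higher in 42.7% of 28440 pairs, so an even split is not the background. The median difference, MTA1 minus RUNX2, was 0.873 percentile points at the members against -3.66 in the whole lists. In pairs within 3 kb of an end of any coding gene MTA1 was higher in 19 of 35 (54.3%, against 56.3% in the whole lists). Elsewhere it was higher in 18 of 37 (48.6%, against 35.1%), with a median difference, MTA1 minus RUNX2, of -1.61 percentile points against -8.21 in the whole lists.

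The direction differed from gene to gene. MTA1 ranked higher in 10 of the 13 pairs of FOSB, in 4 of 5 at JUNB, in 5 of 8 at JUND and in 3 of 4 at FOS. RUNX2 ranked higher in 7 of 8 at FOSL2, in 7 of 7 at BATF3, in 8 of 14 at FOSL1 and in 2 of 3 at BATF. JUN was divided 2 to 2 and ATF3 5 to 5. The 4 RUNX2 peaks that lie in the windows of both ATF3 and BATF3 enter the counts of both. A peak that met 2 peaks of the other list, as at ATF3 and FOSB, counts in 2 pairs. Whether these counts differ beyond chance was not tested, since the pairs of a window are neighbours in the same libraries.

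Promoter sequence was available for 8 members, all but FOSL1 and BATF3, and each RefSeq window runs from 250 bases before the start to 50 after it. ATF3 is listed with 2 starts. Peaks were rarer over windows poor in G and C. Over all 22199 windows of coding genes, 37.5% met a RUNX2 peak and 40.7% an MTA1 peak, and in the lowest of 5 groups by G and C content the shares were 7.31% and 8.07%. Both windows of ATF3 (48% and 46.3% G and C) and that of BATF (46%) fell in that lowest group, and none of them met a peak. The 5 members whose window met peaks of both lists, FOS, FOSL2, JUN, JUNB and JUND, had 62% to 77% G and C. In the groups they fall in, 38.7% to 50.5% of windows met both lists, against 33.6% of all windows of coding genes. The shares for RUNX2 ran from 45.1% to 54.7% in these groups. At FOS the MTA1 peak reached 37 bases of the window and did not cover the start. FOSB, with 64%, met MTA1 alone.

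**Figure D5:**
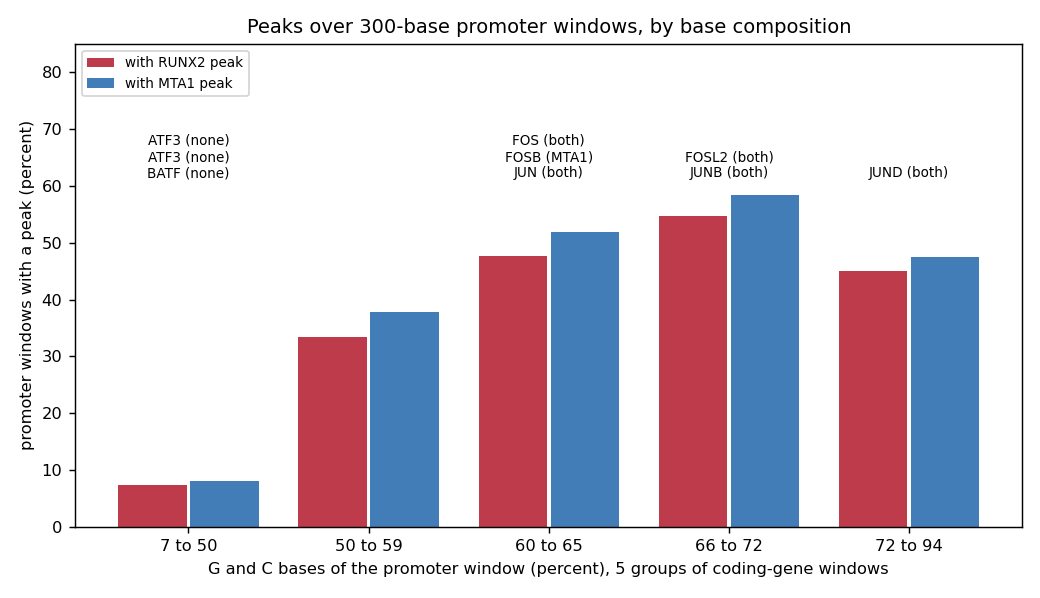
Bars give the percent of 300-base promoter windows of coding genes that meet a RUNX2 or an MTA1 peak, in 5 groups by G and C content, and the names above give each AP-1 promoter in its group with the lists that mark it. The bars are lowest in the group with the least G and C, 7.31% and 8.07%, where ATF3 and BATF lie without a peak.

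Motifs were searched on both strands of these windows, and a match is a description of letters. The AP-1 motif TGANTCA was found in 1 member, FOSL2, as TGACTCA at base 5 after the start and inside both peaks, against 7.71% of all 35116 promoter windows. RUNX sites were searched only in the form TGTGGT. This form was found in 1 member, BATF, against 13.1% of all windows. Its reverse complement ACCACA begins 32 bases before the start of BATF, where no peak lies. Among all windows, those with a RUNX2 peak held TGTGGT less often than those without, 10.8% against 14.02%. These shares were not matched for G and C content, with which the share of windows with a RUNX2 peak varied. The 35116 windows are also not limited to the 22199 of coding genes. The RUNX2 peaks over the starts of FOS, FOSL2, JUN, JUNB and JUND had no TGTGGT in the window. Other forms of a RUNX site in these windows were not looked for.

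A related pair of motifs was added after the data were seen. The 8-base form TGANNTCA, found in 11.5% of all windows, occurred in JUN (67 bases before the start), JUND (200 and 54 bases before) and ATF3 (123 bases before). TGACGT, the core of the cyclic AMP response element bound by CREB and ATF proteins, occurred in 7.98% of all windows. It was more frequent in those with a RUNX2 peak (13.3%) than in those without (5.81%), again without matching for G and C content. TGACGT was present in 4 members, FOS (64 bases before the start), FOSB (60), FOSL2 (66) and JUND (200, 198 and 87). At FOS this match lies in the second stretch of capitals, and at JUND the matches at 200 and 198 bases fall within a TGANNTCA match.

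Other genes of the AP-1 pathway were described in the same way from a list of 24, made of 9 relatives with a leucine zipper, 9 kinases that act on AP-1 proteins and 6 transcription factors of the serum response. RUNX2 lay within 3 kb of an end of 20 of them, MTA1 of 19 and both of 18 (75%), against 51.9% of all coding genes for both. Both were present at 8 of 9 kinases, 6 of 9 relatives and 4 of 6 serum-response factors. The highest-ranked RUNX2 peaks were at MAPK7 (percentile 97.0), the gene of the kinase ERK5, at CREM (96.9), a relative of CREB, and at MRTFA (94.8), a coactivator of SRF. The highest-ranked MTA1 peaks were at MAPK14 (98.9), the gene of the kinase p38 alpha, at MRTFA (98.8) and at CREM (97.6). CREB5, RPS6KA1 and MRTFB had no peak of either list near an end. RUNX2 alone marked JDP2 (percentile 1.51), which neighbours BATF, and ELK3 (13.0), while MTA1 alone marked BATF2 (16.9). These lone peaks ranked low in their lists, and a missing peak of the other list can be a weak signal.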

How the data were processed

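The study profiled MDA-MB-231 chromatin by CUT&Tag with anti-RUNX2 or anti-MTA1, 1 library each. The authors deposited 1 peak list per library with position and a score of unstated scale, so depth is unknown and scores were compared only by rank between lists. Per the labels, CASAVA 1.4, Bowtie 0.12.8, MACS and MACS2 are named in the submitters' processing notes, with no peak threshold given in the sources used here. The labels and the methods name different antibody suppliers, and the labels describe adaptor ligation, which CUT&Tag does not usually use.

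The notes name hg19, but the positions fit GRCh38: 37.5% of RefSeq GRCh38.p14 promoter windows met a RUNX2 peak and 40.7% an MTA1 peak, against 1.56% and 1.18% after a move of 100 kb. Peak positions are printed 1-based as listed. Only peaks on chromosomes 1 to 22, X and Y were kept, so that 61700 of 61717 RUNX2 and 42683 of 42698 MTA1 peaks remained. A missing peak can be a weak signal.

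Genes came from the RefSeq table, all 10 symbols were found, and the promoter table held 8 of them. Peaks overlapped when they shared at least 1 bp, and shares carry exact (Clopper-Pearson) 95% intervals. No p-value was computed. The overlap and window steps were tested on simulated data. Versions were matplotlib 3.10.9, scipy 1.17.1, pandas 2.3.3, numpy 2.4.6 and Python 3.11.15. The members and lists were chosen with earlier results of these data known. Named were all members, the strongest peak of each list in each window, every peak within 3 kb of an end, and, of the other pathway genes, those without a peak near an end and the 3 highest-ranked per list. Other strong pairs were named after their values were seen. Comparisons by number of neighbours, by G and C content and by the highest 10% of scores, and the motifs TGANNTCA and TGACGT, were also added after the data were seen.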

Additional observations from a re-analysis of the deposited data

How the results depend on the processing

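Alternative settings changed many counts, and the comparison with other genes was repeated for density only. The overlap shares, percentiles and near-end counts below are those of the members, without a background under the same setting. The density of all 10 members stayed above the median of all coding genes in both lists under windows of 100 kb, the upper part of the scores from the median on, the 10000 highest-scoring peaks, peaks wider than the narrowest and merging within 500 bp, and with windows of 10 kb for MTA1 alone (RUNX2: 8 members). Windows of 10 kb held 38 RUNX2 and 38 MTA1 peaks, the RUNX2 overlap rose to 73.7%, and the median percentile of the strongest peak was 91.1 for RUNX2 and 88.1 for MTA1. Windows of 100 kb held 173 RUNX2 peaks, with median percentiles of 98.8 and 99.7. Keeping only peaks whose nearest coding gene was the member left 52 RUNX2 and 42 MTA1 peaks. The 10000 highest-scoring peaks of each list left 25 and 41, with overlaps of 80.0% and 48.8%, and 5 members with a RUNX2 peak, and 5 with both, near an end. The share of all coding genes with such peaks near an end was not computed for these shorter lists. Without the narrowest peaks the MTA1 overlap was 86.1%, and with an overlap of 50% of both peaks the shares were 52.2% for RUNX2 and 64.8% for MTA1. The other 31 values moved less than their counting interval or 1.5 times. No paired analysis was possible because each antibody has 1 library and the labels give no replicate numbers. The search for motifs near peak centres needs a genome sequence and was not run. Depth is unknown, so absent peaks, as at the BATF start, cannot be told apart from weak ones.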
